A study of Mus musculus with 6 samples.

Results

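The enzymes that build mucin-type O-glycans and their terminal sugars and sulfates were compared between colonic crypts of GSK503-treated and control mice of a Lynch syndrome model. Members were all genes of the *Galnt*, *B3gnt*, *B4galnt*, *Gcnt*, *St3gal*, *St6gal*, *St6galnac*, *Fut* and *Chst* families with a plain family number, plus *C1galt1*, *C1galt1c1* and *B3galt5*, which came to 69 of the 18049 genes measured. Some members of these families mainly serve glycolipids, N-glycans or chondroitin chains, and they were kept because the choice was made by gene name. Earlier results of these data were known when it was made. Total RNA was sequenced from crypts of 3 control and 3 treated mice, with 1 library per mouse. Treated mice received GSK503, a small-molecule inhibitor of the histone methyltransferase EZH2, by tail vein at 200 μg/kg, 2 injections a week, in PBS over a 9-week trial, whereas controls received 20% captisol in PBS. All the mice carried the same genotype, a conditional deletion driven by *Villin-Cre*, which is active in the intestinal epithelium, together with a humanized *TgfβRII* knockin that holds an 11-base poly(A) repeat, and they ate a Western-style diet. The age at which the crypts were taken is not given in the sources used here. The study asked what inhibition of EZH2 does to transcription in the colonic epithelium of this model.

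Mucin-type O-glycosylation takes place in the Golgi. A GALNT enzyme attaches GalNAc to serine or threonine of the protein, other enzymes build that sugar into a core and its branches, and repeated additions of GlcNAc and galactose lengthen the chain. Sialic acid, fucose and sulfate then cap it, and in the colon these caps give the mucus and the apical glycocalyx much of their charge, their blood group antigens and their binding sites for bacteria and lectins. Goblet cells, which secrete the gel-forming mucin, and colonocytes, which carry transmembrane mucins, both use this pathway.

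The libraries held between 108162789 and 135084965 estimated counts, and 3 counts corresponded to between 0.0228 and 0.0271 on the deposited scale, an estimated CPM of a TMM-scaled library. This floor covers counting error only. *Xist* lay between 0.419 and 0.936 in the controls and between 825 and 1236 in treated mice, and the Y-linked *Uty* between 42.5 and 53.7 in the controls and between 0.67 and 1.08 in treated mice, so that treatment and sex cannot be told apart in any difference given here. The vehicle differed between the groups as well. The epithelial markers *Krt8*, *Epcam*, *Cldn7*, *Cdh1* and *Vil1* summed to between 8884 and 9757 in the controls and between 9418 and 10779 in treated mice, and none of the 5 passed the limma test (1 had an unadjusted p below 0.05). *Ezh2* itself was 46.7, 37.4 and 46.5 in the controls and 36.6, 35.2 and 36.3 in treated mice (log2FC -0.27, limma adjusted p = 0.291). Summed B and plasma cell markers were 35.6, 77.4 and 23.9 in the controls and 4.65, 2.97 and 64.0 in treated mice, so that treated mouse 3 stood apart from treated mice 1 and 2. In treated mouse 3 *Jchain* alone was 57.9, beside 0.839 and 0.844 in treated mice 1 and 2. For 2 of the 8 markers, *Ms4a1* and *Cd79b*, all 3 treated mice lay below all 3 controls.

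Of the 65 members tested, 3 rose after GSK503 at a limma adjusted p below 0.05 and none fell. They were the α2,3-sialyltransferases *St3gal6* and *St3gal4* and the GlcNAc-6-O-sulfotransferase *Chst4*, which put the negatively charged caps sialic acid and sulfate on glycan chains. A further 3 passed at an adjusted p below 0.1, the sialyltransferase *St3gal3*, the initiating enzyme *Galnt5* and the chain-extending enzyme *B3gnt2*, again all higher in treated mice. Over all 16670 genes tested, 0.642% were called at 0.05 (0.498% higher and 0.144% lower) and 1.97% at 0.1 (1.41% higher and 0.558% lower), beside 3 and 6 of the 65 members. At an unadjusted p below 0.05 the limma test held 17 of the 65 members, 15 higher and 2 lower (*Galnt4* and *Gcnt4*). Beside them it held 13.3% of all 16670 genes, 1177 higher and 1046 lower. The count of 3 depended on single mice. It was 0 without control 3 or treated mouse 2, 1 without control 2, 2 without control 1, and 3 without treated mouse 1 or treated mouse 3. The calls at 0.05 came from a variance model in which the spread follows the level of a gene, and without that trend no member was called by limma, nor with the replicate number as a block (14 and 16 members at an unadjusted p below 0.05).

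The members' differences lay mostly above 0 and were small. The log2FC was above 0 for 46 of the 65 and below 0 for 19, beside 48.9% of all genes above 0, with a median log2FC of 0.17 beside -0.01 over all genes tested. With each library scaled by its total alone, 34 were higher and 31 lower, with a median of 0.06 beside -0.12 over all genes, so that the members' median lay above that of all genes under both scalings. All 3 treated mice lay above all 3 controls for 13 members and below them for 3, beside 9.84% and 9.22% of all genes. With each library scaled by its total alone, these counts of members were 10 and 4, and the share of all genes was not computed. The 69 members together summed to 4776, 5151 and 5157 in the controls and 5453, 5692 and 5403 in treated mice. As a share of each library's signal they lay between 0.486% and 0.529%, and in this share the groups overlapped. The 4 members *Galnt14*, *Galnt16*, *Galnt17* and *Chst3* were too low to be tested, and 19 of the 69 averaged under 1.

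**Figure D1:**
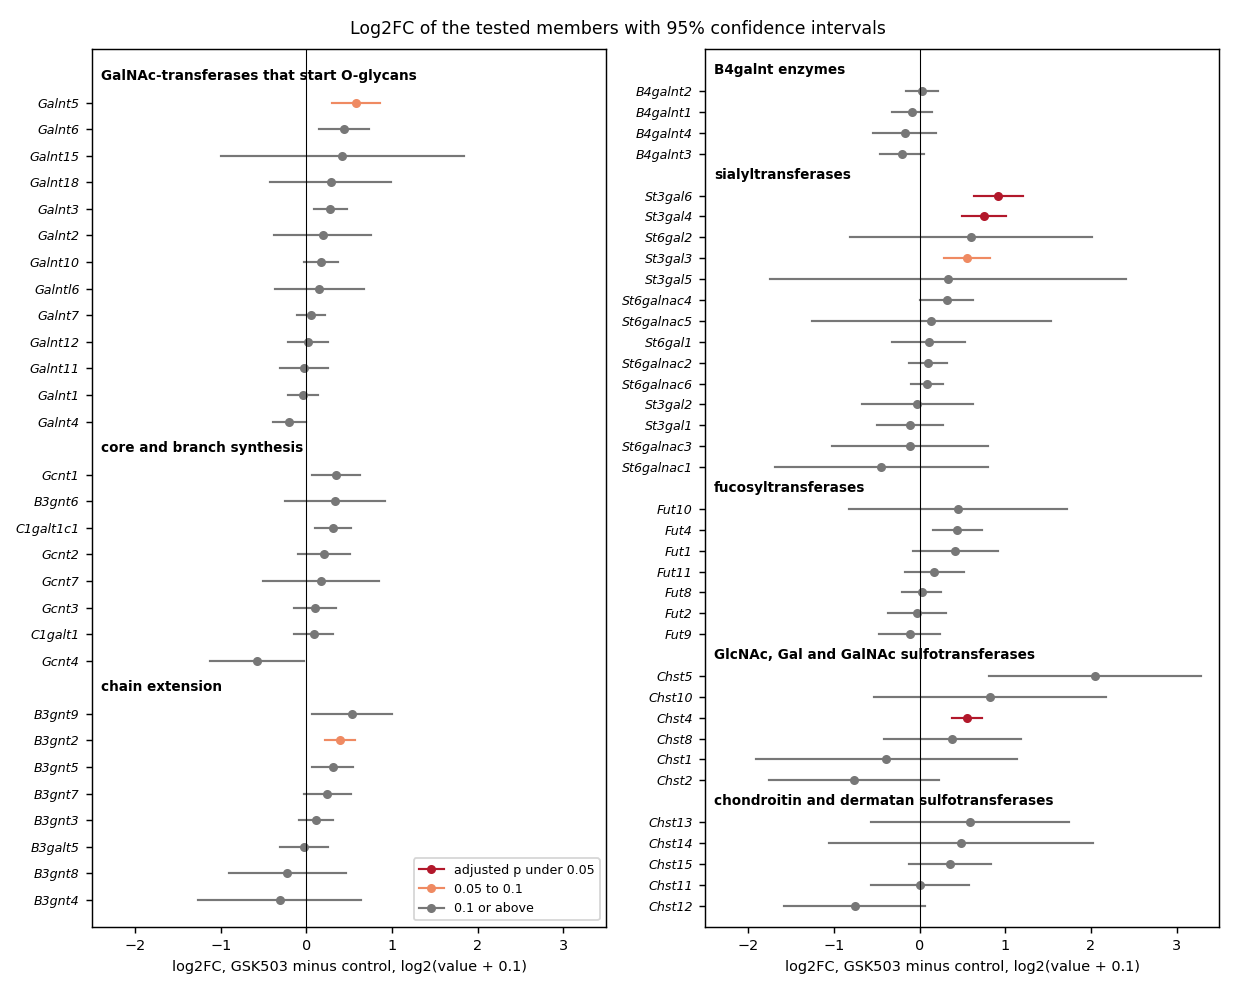
Log2FC (GSK503 minus control, on log2 of the value plus 0.1) of the 65 tested members by role, as points with 95% confidence intervals from limma; red marks an adjusted p below 0.05 and orange one between 0.05 and 0.1. *St3gal6*, *St3gal4* and *Chst4* are the only red points, and the abundant members with short intervals, such as *B4galnt2* and *St6galnac6*, sit near 0.

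The level per kilobase of exon ranked the members by role. *B4galnt2*, which adds the GalNAc that completes the Sda blood group antigen, was first at 131 per kb, followed by the sialyltransferase *St6galnac6* at 82.7, the type 1 chain galactosyltransferase *B3galt5* at 58.9, *Galnt4* at 54.4 and the α1,2-fucosyltransferase *Fut2* at 53.4. These are means over the 6 mice for the 66 members matched to the annotation, and *Fut10*, *Fut11* and *St6galnac2* are not in this order. Only *Galnt4* of these 5 had groups that did not overlap. *St3gal4* was at 39.1 per kb in the controls and 65.6 in treated mice, whereas *St3gal6* was at 8.97 and 17.1 and *Chst4* at 12.6 and 18.5.

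**Figure D2:**
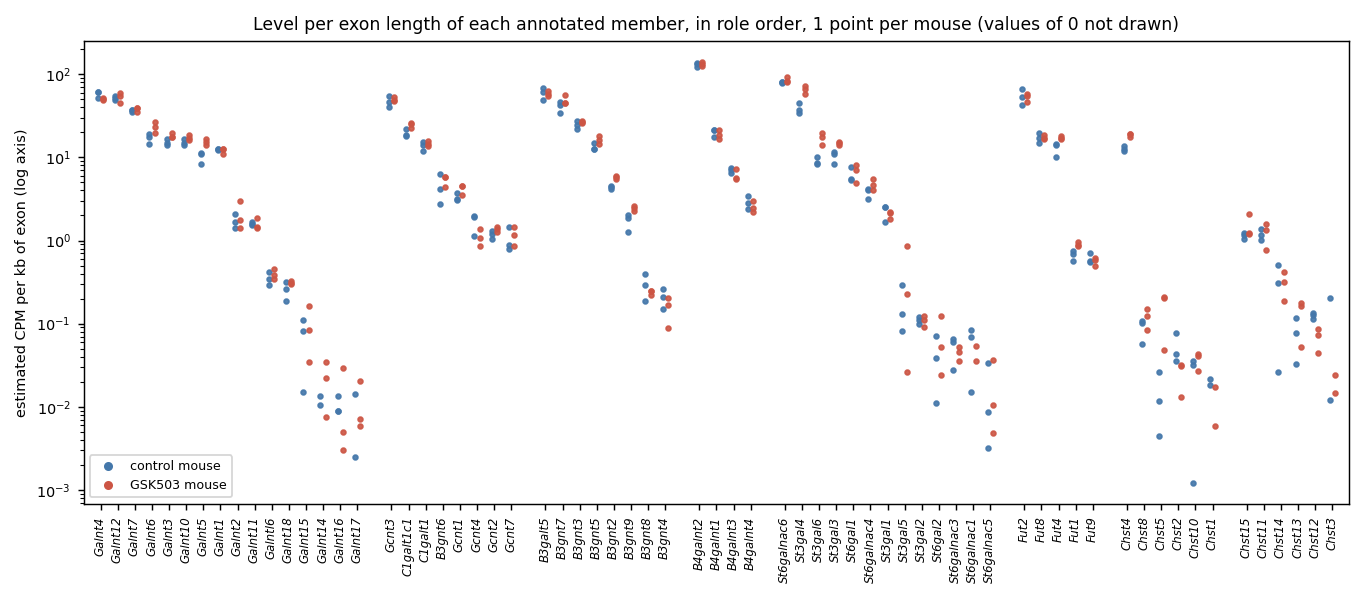
Estimated CPM per kilobase of exon on a log axis for the 66 annotated members, 1 point per mouse, blue for controls and red for GSK503, ordered by level within each role; values of 0 are not drawn. Levels run from 131 per kb for *B4galnt2* down to under 0.01 for *Galnt17*, and the groups part visibly at *St3gal4*, *St3gal6* and *Chst4*.

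Among the enzymes that start O-glycans, 13 of 16 *Galnt* members were tested, 10 with a higher and 3 with a lower mean in treated mice and a median log2FC of 0.17. *Galnt5* was 63.7, 62.2 and 46.0 in the controls and 77.8, 92.1 and 84.7 in treated mice (log2FC 0.58, SE 0.13, limma adjusted p = 0.0812). The groups did not overlap, and the call at 0.1 stood in 10 of 17 alternative settings. *Galnt6*, an initiating enzyme of the same subfamily as *Galnt3*, was 119, 128 and 96.9 against 156, 179 and 133 (log2FC 0.44, SE 0.13, limma adjusted p = 0.175). *Galnt3* was 76.4, 89.99 and 81.0 in the controls and 95.4, 108 and 96.3 in treated mice (log2FC 0.28, SE 0.09, limma adjusted p = 0.201). Both had groups that did not overlap, and neither passed the test over all genes.

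*Galnt4* had lower values after GSK503 and did not pass the test. In 1 of 17 alternative settings, with libraries scaled by their totals alone, *Galnt4* was lower at a limma adjusted p of 0.0838 (log2FC -0.31). It was the *Galnt* member with the highest level per kb, at 266, 310 and 312 in the controls and 260, 266 and 247 in treated mice, where the highest treated mouse lay just under the lowest control (log2FC -0.20, SE 0.08, limma adjusted p = 0.351). Its exons lie almost wholly (99.96% of bases) within exons of *Poc1b*, a centriole gene on the same strand, which also had lower values without passing (23.8, 23.7 and 24.8 against 22.2, 17.7 and 19.9, log2FC -0.28, limma adjusted p = 0.296), and RSEM divides reads that fit both genes by estimation. Other abundant *Galnt* members did not pass the test, with a log2FC of 0.17 (95% interval -0.02 to 0.37) for *Galnt10*, which like *Galnt7* prefers peptides that already carry GalNAc, 0.02 (95% interval -0.21 to 0.25) for *Galnt12*, 0.06 (-0.11 to 0.22) for *Galnt7* and -0.04 (-0.22 to 0.13) for the broadly expressed *Galnt1*. The summed *Galnt* values averaged 1221 ± 59.8 (SD, n = 3) in the controls and 1300.1 ± 77.1 (SD, n = 3) after GSK503. *Galnt3*, *Galnt5* and *Galnt6* made up between 18.8% and 21.9% of that sum in the controls and between 25.4% and 27.4% in treated mice, and *Galnt4* between 22.4% and 26.3% and between 19.2% and 20.3%. These genes were picked because their values were already known to differ, so the shares are given without a test.

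For core and branch synthesis, all 8 members were tested and none was called by limma (3 had an unadjusted p below 0.05), with 7 higher, 1 lower and a median log2FC of 0.19. *C1galt1* makes core 1, and it differed little (log2FC 0.08, 95% interval -0.14 to 0.31). *C1galt1c1*, the chaperone without which core 1 synthase is not active, was 47.5, 56.1 and 46.1 in the controls and 57.0, 65.0 and 63.4 in treated mice (log2FC 0.31, SE 0.10, limma adjusted p = 0.196). The groups did not overlap, but the gene lies on the X chromosome, and this comparison cannot be separated from sex. *Gcnt3*, the core 2 and core 4 branching enzyme of mucin-secreting epithelia, had the highest level per kb of this role and was 198, 233 and 172 in the controls and 230, 211 and 203 in treated mice (log2FC 0.10, 95% interval -0.14 to 0.35). The groups overlapped fully. The other core 2 enzymes had log2FC of opposite sign at unadjusted p values below 0.05, *Gcnt1* by a log2FC of 0.35 (limma adjusted p = 0.274) and *Gcnt4* by -0.58 (limma adjusted p = 0.344). *B3gnt6*, the core 3 synthase of the colon, was 10.6 ± 4.26 (SD, n = 3) in the controls and 12.7 ± 1.92 (SD, n = 3) after GSK503, a difference within the spread of the mice.

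Chain extension had 8 members, of which 5 were higher and 3 lower, with a median log2FC of 0.18. *B3gnt2*, the main enzyme of poly-N-acetyllactosamine synthesis, was 30.8, 29.3 and 31.3 in the controls and 41.1, 38.8 and 40.3 in treated mice (log2FC 0.39, SE 0.08, limma adjusted p = 0.0598). It had the tightest groups of the 6 members called at 0.1. The annotation places 35.2% of its exon bases under exons of *Commd1b* on the same strand, and *Commd1b* was not analysed here. *B3gnt9* was 4.66, 5.13 and 3.19 against 6.64, 6.26 and 5.67, without overlap (log2FC 0.53, SE 0.21, limma adjusted p = 0.309). *B3gnt5*, which starts lacto-series glycolipids, had a log2FC of 0.31 with overlapping groups (limma adjusted p = 0.246). *B3galt5*, with the highest level per kb of this role, was 420, 527 and 597 in the controls and 503, 536 and 466 in treated mice (log2FC -0.03, 95% interval -0.31 to 0.26), and the controls spanned the treated mice.

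The 4 *B4galnt* genes showed no call by limma and none had an unadjusted p below 0.05, with 3 lower and 1 higher and a median log2FC of -0.13. *B4galnt2* was 509, 549 and 558 in the controls and 583, 542 and 518 in treated mice (log2FC 0.02, 95% interval -0.16 to 0.21). The groups overlapped. *B4galnt1*, the GM2 and GD2 ganglioside synthase, had a log2FC of -0.09 (95% interval -0.33 to 0.14). *B4galnt3* and *B4galnt4*, which make LacdiNAc, had -0.20 and -0.18.

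Sialyltransferases held the largest change among the 43 members that averaged at least 5 estimated CPM. All 14 were tested, 10 higher and 4 lower, and 2 were called at 0.05 and 3 at 0.1. *St3gal6*, which sialylates type 2 N-acetyllactosamine ends, lies at GRCm39 chr16:58286438-58344780 on the minus strand. It was 90.6, 75.8 and 75.4 in the controls and 126, 157 and 178 in treated mice. Every treated mouse lay above every control, and the log2FC was 0.92 (SE 0.13, limma adjusted p = 0.0157), a ratio of means of 1.90. *St3gal4*, which acts on the same ends and takes part in sialyl Lewis x synthesis, lies at chr9:34957872-35034889 on the minus strand. It was 229, 174 and 187 in the controls and 295, 359 and 337 in treated mice, again without overlap. Its log2FC was 0.75 (SE 0.11, limma adjusted p = 0.0216), a ratio of means of 1.68. *St3gal3*, the third enzyme that sialylates galactose ends of lactosamine chains, was 55.4, 41.6 and 58.0 in the controls and 75.8, 77.4 and 72.0 in treated mice (log2FC 0.55, SE 0.12, limma adjusted p = 0.0784).

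The calls on *St3gal6* and *St3gal4* depended on single mice. Without control 2, control 3 or treated mouse 2 both lost the call at 0.05, with an adjusted p between 0.0615 and 0.0955 for *St3gal6* and between 0.0751 and 0.139 for *St3gal4*, whereas the log2FC stayed between 0.80 and 1.06 for *St3gal6* and between 0.67 and 0.87 for *St3gal4* with any 1 mouse left out. Each was called in 12 of 17 alternative settings. Exons of other genes lie over both. *Dcbld2*, on the opposite strand, covers 44.1% of the *St3gal6* exon bases and was 14.9, 13.4 and 17.1 in the controls and 17.8, 22.5 and 26.2 in treated mice (log2FC 0.54, limma adjusted p = 0.168). The antisense lncRNA *4930581F22Rik* covers 24.2% of the *St3gal4* exon bases and rose from 15.4, 10.2 and 16.8 to 31.6, 33.7 and 34.9 (log2FC 1.27, SE 0.17, limma adjusted p = 0.0138). The library kit kept strand, but the strand setting of the counting is not given in the sources used here, and the part of these overlapping genes in the values was not tested.

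The remaining *St3gal* members, which act on other acceptors, were low or flat. *St3gal1*, an enzyme that caps core 1, had a log2FC of -0.11 (95% interval -0.49 to 0.28), *St3gal2* had -0.03, and *St3gal5*, the GM3 synthase of glycolipids, ranged from 0.57 to 1.999 in the controls and from 0.183 to 5.93 in treated mice. *St3gal3*, *St3gal4* and *St3gal6* made up between 94.0% and 95.7% of the summed *St3gal* values in the controls and between 95.8% and 97.7% in treated mice. The sum over the 6 genes was 394, 305 and 341 in the controls and 518, 611 and 601 in treated mice.

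The 8 *St6gal* and *St6galnac* genes, which attach sialic acid in α2,6 linkage, had no call by limma (1 had an unadjusted p below 0.05) and a median log2FC of 0.10, against -0.02 when libraries were scaled by their totals. *St6galnac6*, the most abundant of them per kb, was 566, 552 and 572 in the controls and 572, 648 and 577 in treated mice (log2FC 0.09, 95% interval -0.10 to 0.27). *St6gal1*, which caps N-glycans, had a log2FC of 0.10 (95% interval -0.32 to 0.53), and *St6galnac4* had 0.31 at a limma adjusted p of 0.375. *St6galnac1*, the sialyl-Tn synthase, was at 0.199 or lower in every mouse. The 8 genes summed to 694, 693 and 684 in the controls and 692, 788 and 740 in treated mice. The ratio of the *St3gal* sum to this sum was 0.568, 0.440 and 0.499 in the controls and 0.749, 0.775 and 0.812 in treated mice, a ratio within each library that no scaling alters, and all 3 treated mice lay above all 3 controls. Because the *St3gal* values were already known to differ, the ratio is given without a test.

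**Figure D3:**
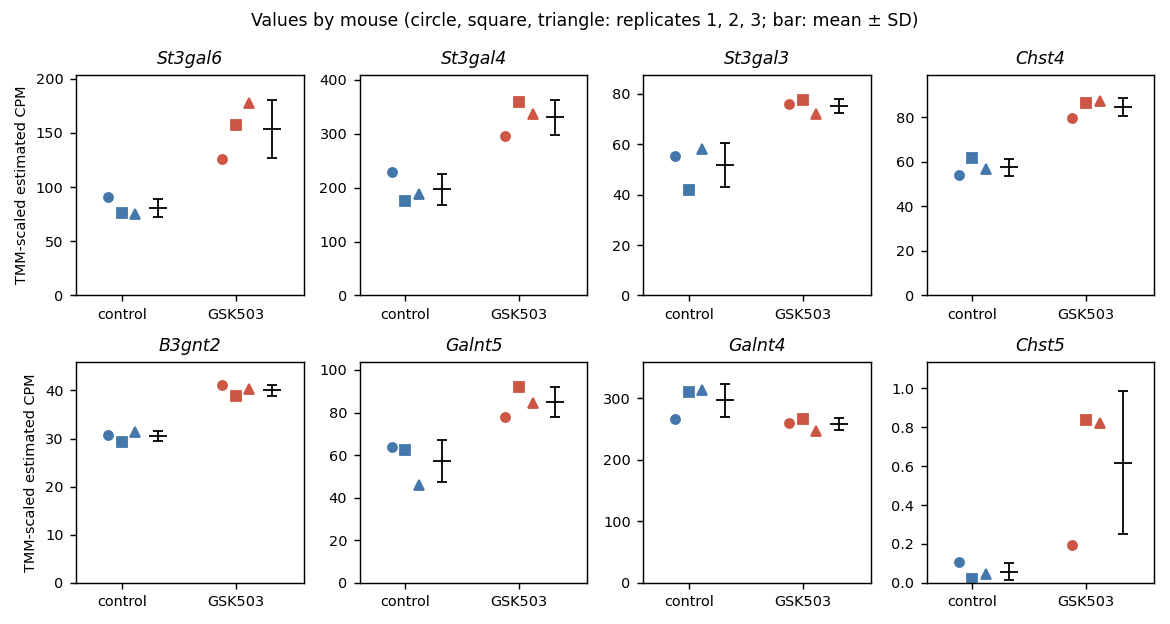
Estimated CPM of 8 members in each mouse, controls in blue and GSK503 in red, with circles, squares and triangles for replicates 1, 2 and 3 and bars for mean ± SD; every axis starts at 0. The treated mice lie above the controls without overlap for all but *Galnt4*, where they lie just below, and *Chst5* stays under 1.

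Promoters of the 3 genes called at 0.05 are shown to compare the sequences at their starts. They are RefSeq windows (GRCm38.p6, from 250 bases before to 50 after the start, 5′ to 3′ on the gene's strand) with every CpG in capitals, since CpG-rich starts are typical sites of Polycomb binding.
*Chst4*, chr8:110039285-110039584, minus strand: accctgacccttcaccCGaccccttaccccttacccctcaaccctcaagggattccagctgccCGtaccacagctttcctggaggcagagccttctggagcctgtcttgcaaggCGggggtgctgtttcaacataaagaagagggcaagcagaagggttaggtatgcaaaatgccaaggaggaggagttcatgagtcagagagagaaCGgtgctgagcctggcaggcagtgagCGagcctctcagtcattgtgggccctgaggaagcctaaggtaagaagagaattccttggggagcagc
*St3gal4*, chr9:35116815-35117114, minus strand: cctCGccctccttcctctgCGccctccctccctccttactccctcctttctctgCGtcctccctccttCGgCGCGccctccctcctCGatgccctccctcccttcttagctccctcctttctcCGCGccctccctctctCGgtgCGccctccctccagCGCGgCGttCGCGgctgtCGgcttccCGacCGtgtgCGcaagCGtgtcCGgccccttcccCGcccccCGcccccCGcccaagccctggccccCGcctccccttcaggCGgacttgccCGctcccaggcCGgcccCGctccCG
*St3gal6*, chr16:58523377-58523676, minus strand: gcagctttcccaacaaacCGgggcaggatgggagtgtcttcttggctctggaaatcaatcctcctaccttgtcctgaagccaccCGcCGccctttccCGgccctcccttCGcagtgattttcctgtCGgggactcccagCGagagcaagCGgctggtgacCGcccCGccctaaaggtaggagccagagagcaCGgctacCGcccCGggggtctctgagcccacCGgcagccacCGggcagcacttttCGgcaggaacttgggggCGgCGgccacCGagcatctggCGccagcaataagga
*St3gal6*, second start, chr16:58524204-58524503, minus strand: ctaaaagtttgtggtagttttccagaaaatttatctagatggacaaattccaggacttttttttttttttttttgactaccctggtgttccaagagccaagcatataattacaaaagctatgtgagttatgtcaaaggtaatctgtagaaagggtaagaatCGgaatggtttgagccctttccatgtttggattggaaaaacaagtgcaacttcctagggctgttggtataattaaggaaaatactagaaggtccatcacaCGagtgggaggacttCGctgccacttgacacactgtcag
These windows hold 5 CpG for *Chst4*, 31 for *St3gal4*, and 20 and 3 for the starts of *St3gal6*. Over all 32851 RefSeq promoters the median was 7 CpG (interquartile range 3 to 20), and over the 69 promoters of the 51 members matched it was 18 (9 to 24). The SP-type motif GGGCGG, on either strand, was in the *St3gal4* window and the CpG-rich *St3gal6* window. It was in 35.7% of all promoters and 56.5% of member promoters. The E-box CAGCTG was in the *Chst4* window, 16.3% of all promoters and 17.4% of member promoters. The E-box CAGATG was in the CpG-rich *St3gal6* window, 17.2% of all promoters and 14.5% of member promoters. TATAAA (13.6% of all promoters) and the forkhead motif TGTTTAC (3.65%) were in none of the 4 windows, and GGAAGT (23.8%) was in the second *St3gal6* window alone. No searched motif was in a window of all 3 genes. Binding at these windows was not measured in these libraries.

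All 7 fucosyltransferases were tested, 5 higher and 2 lower, with no call by limma (1 had an unadjusted p below 0.05) and a median log2FC of 0.17. *Fut2*, the secretor enzyme that makes the H antigen of the gut, was 238, 297 and 371 in the controls and 318, 300 and 257 in treated mice (log2FC -0.03, 95% interval -0.37 to 0.30). *Fut4*, an α1,3-fucosyltransferase of Lewis x synthesis, was 58.4, 57.7 and 41.5 in the controls and 67.3, 70.4 and 74.1 in treated mice (log2FC 0.44, SE 0.13, limma adjusted p = 0.167). *Fut4* and the low *Fut1* (1.75 to 2.31 against 2.64 to 2.92) had groups that did not overlap, and *Fut8*, which adds the core fucose of N-glycans, had a log2FC of 0.02 (95% interval -0.20 to 0.25).

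Of the 6 *Chst* members outside the chondroitin and dermatan group, *Chst4* was the most abundant, and the other 5 reached at most 1.46 in any mouse. *Chst4* lies at GRCm39 chr8:110753551-110766372 on the minus strand, and no exon of another gene overlaps its exons in the annotation used. It was 54.1, 61.6 and 56.9 in the controls and 79.8, 86.2 and 87.2 in treated mice. The groups were far apart for their spread, with a log2FC of 0.55 (SE 0.08, limma adjusted p = 0.0157) and a ratio of means of 1.47. The adjusted p rose to 0.0513, 0.0537 and 0.125 without control 1, control 3 and treated mouse 2, and the log2FC lay between 0.51 and 0.60 with any 1 mouse left out. *Chst5*, the related intestinal GlcNAc-6-O-sulfotransferase, was 0.107, 0.0181 and 0.0472 in the controls and 0.195, 0.836 and 0.824 in treated mice, or 14, 2 and 6 against 23, 105 and 99 estimated counts. Its log2FC of 2.05 (SE 0.55, limma adjusted p = 0.142) did not pass the test, with treated mouse 1 close to the controls. At so low a level the log2FC follows the pseudocount, and it was 0.59 with a pseudocount of 1, 0.95 with 0.5, 3.20 with 0.01 and 3.34 with limma-voom. *Chst2* was lower in every treated mouse (0.112 to 0.266 against 0.297 to 0.651) at a level of under 1. Chondroitin and dermatan sulfotransferases, which serve proteoglycans, had no call by limma among 5 tested, and none had an unadjusted p below 0.05. *Chst15*, with the highest level per kb of these, was 9.23, 8.59 and 7.86 in the controls and 9.33, 8.92 and 15.8 in treated mice (log2FC 0.36, SE 0.21), where only treated mouse 3 stood out.

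Other genes of the pathway were counted in the same way as the members. Of 59 listed genes measured, 56 were tested. At an unadjusted p below 0.05 the limma test held 9 of the 56, 6 higher and 3 lower, beside 13.3% of all genes. All 3 treated mice lay above all 3 controls for 11 and below them for 3, beside 9.84% and 9.22% of all genes. At a limma adjusted p below 0.05, 1 rose and 1 fell, beside 0.498% and 0.144% of all genes. The riser was *Abo*, the blood group A and B transferase that extends the H antigen, at 4.20, 3.69 and 3.31 in the controls and 9.38, 10.7 and 6.74 in treated mice (log2FC 1.22, SE 0.20, limma adjusted p = 0.0335). The gene that fell was *Muc1*, a transmembrane mucin, at 11.7, 9.83 and 12.6 against 4.36, 4.53 and 6.35 (log2FC -1.16, SE 0.18, limma adjusted p = 0.0275). Neither call was firm, since the count of 2 was 0 with any 1 of the controls, treated mouse 1 or treated mouse 2 left out and 4 without treated mouse 3. At 0.1 the GDP-fucose synthase *Gfus* (log2FC 0.45, limma adjusted p = 0.0522) and the galactosyltransferase *B4galt5* (log2FC 0.36, limma adjusted p = 0.0949) were also higher. No gene of sialic acid supply (5 tested), UDP-sugar supply (9) or sulfate donor supply (7) was called by limma at either threshold, and 0, 1 and 0 of them had an unadjusted p below 0.05. In sialic acid supply, *Gne*, the first enzyme, was 569, 610 and 607 in the controls and 618, 668 and 716 in treated mice (log2FC 0.16, limma adjusted p = 0.47), and *Cmas*, which activates sialic acid for transfer, had a log2FC of 0.16 (limma adjusted p = 0.4). The treated mice lay above the controls for both, by far less than for *St3gal4*. Among 8 mucin genes tested, 5 were lower and 3 higher, with a median log2FC of -0.18. *Muc2*, *Muc4*, *Muc6*, *Muc15* and *Muc17* were not among the genes measured, so that these values do not cover them. The abundant *Muc3* was 6349, 5612 and 9423 in the controls and 4390, 3645 and 4972 in treated mice (log2FC -0.69, limma adjusted p = 0.223). The gene listed as *Muc3a* had a log2FC of -0.19 (limma adjusted p = 0.616).

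Markers of some cell types also differed between the groups. All 9 goblet cell markers in the table were higher in treated mice, 5 called at 0.05 and 8 at 0.1, with a median log2FC of 0.79, and their sum ran from 10971 to 19398 in the controls and from 33858 to 52097 in treated mice. Most of this sum was *Clca1* (means of 4864 in the controls and 23931 in treated mice) and *Fcgbp* (6444 and 15993). None of the 9 markers was at 0 in any group. *Spdef*, the goblet cell transcription factor, rose by a log2FC of 0.68 (limma adjusted p = 0.0459), and *Atoh1*, which specifies secretory cells, had 0.46 (limma adjusted p = 0.123), beside 0.55 for *Chst4* and 0.92 for *St3gal6*. All 7 tuft cell markers were higher, with sums of 27.3 to 40.5 and 49.4 to 58.3, and 0 were called at 0.05 and 2 at 0.1. All 8 enteroendocrine markers were lower, 3 called, with sums of 213 to 264 and 135 to 174. Colonocyte markers overlapped, at 3780 to 3911 and 2846 to 6293, and none was called (2 had an unadjusted p below 0.05). The largest was *Car1*, at 1791 to 2206 in the controls and 954 to 4019 in treated mice. Smooth muscle markers summed to 99.2, 181 and 144 in the controls and 73.6, 81.2 and 212 in treated mice, and macrophage markers to between 18.1 and 25.8 and between 6.82 and 36.2, with treated mouse 3 highest in both. The largest smooth muscle marker was *Mylk*, at 77.9 to 96.9 in the controls and 69.1 to 88.3 in treated mice. All 8 smooth muscle and all 8 macrophage markers had a log2FC below 0, with medians of -1.74 for smooth muscle and -0.50 for macrophages. Neither list had a call or an unadjusted p below 0.05 by limma. All 8 B and plasma cell markers had a log2FC below 0, 4 with an unadjusted p below 0.05 and 1 called at 0.1. Fibroblast markers summed to between 218 and 276 in the controls and between 268 and 395 in treated mice. Of these markers 5 were lower and 2 higher, with a median log2FC of -0.67. Endothelial markers summed to between 10.4 and 12.6 and between 11.8 and 20.4, with 5 lower, 1 higher and a median log2FC of -0.64. Each list had 1 marker called higher at 0.1, *Gsn* (means of 181 and 280) and *Vwf* (5.90 and 10.8), which held most of the sums. Each list also had 1 lower marker with an unadjusted p below 0.05 by limma, *Pdgfra* (log2FC -2.06) and *Flt1* (log2FC -1.30). By limma no T cell or glial marker had an unadjusted p below 0.05. In bulk crypts more cells of a type and more RNA per cell cannot be told apart, and the part of the goblet cell markers in the rise of *St3gal6*, *St3gal4* and *Chst4* was not tested.

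**Figure D4:**
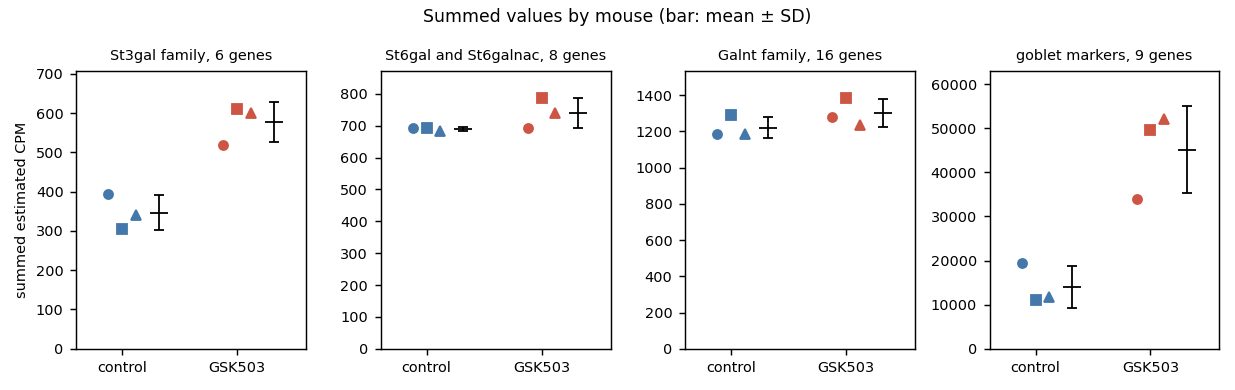
Summed estimated CPM in each mouse for the 6 *St3gal* genes, the 8 *St6gal* and *St6galnac* genes, the 16 *Galnt* genes and 9 goblet cell markers, with bars for mean ± SD and axes from 0. The *St3gal* and goblet sums separate the groups, at 305 to 394 against 518 to 611 for *St3gal*, and the other sums overlap.

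**Figure D5:**
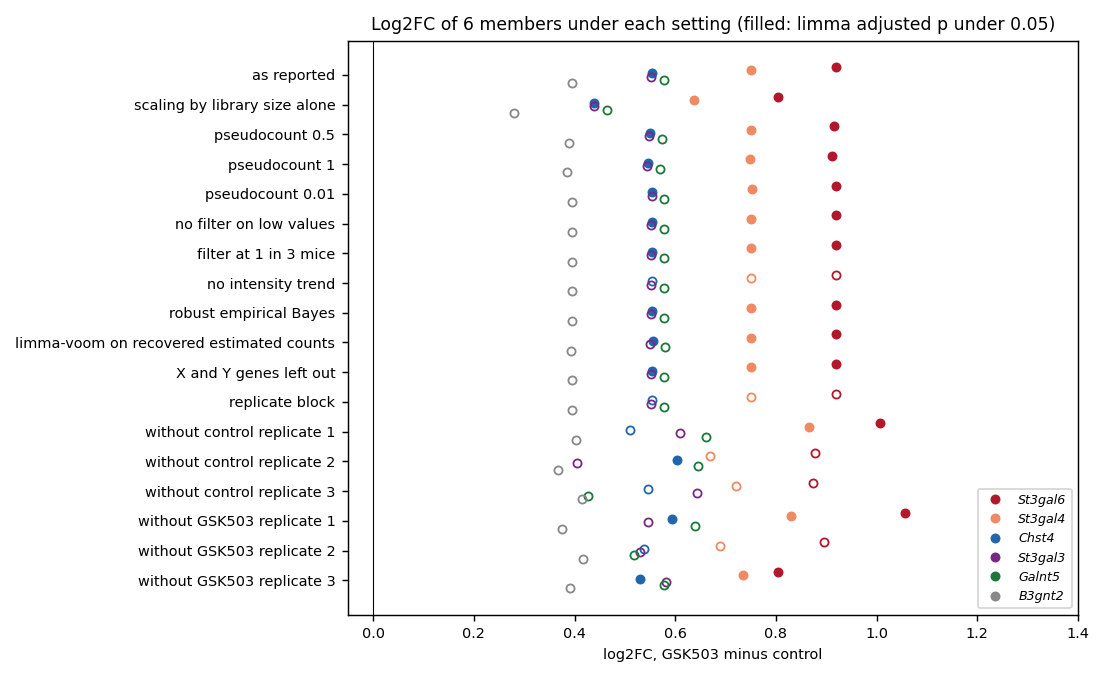
Log2FC of the 6 members with an adjusted p below 0.1 under each alternative setting and with each mouse left out, filled where the limma adjusted p was below 0.05. All points lie above 0, and *St3gal6*, *St3gal4* and *Chst4* lose the fill without the intensity trend, with the replicate block and without treated mouse 2 or control 3.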

How the data were processed

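Crypt libraries (total RNA) of 3 control and 3 GSK503-treated mice were grouped by the sample labels. The authors mapped 76-base read pairs from a stranded kit to GRCm39 (STAR), made RSEM estimates of gene counts and applied the TMM scaling of edgeR. The deposited signal is therefore an estimated CPM of the TMM-scaled library, and between 82.5% and 84.7% of values under 3 were whole counts within 0.02. A count test did not suit these scaled values, so lmFit and eBayes of limma 3.58.1 (R 4.3.3) with an intensity trend were run on log2(value + 0.1) over the 16670 of 18049 genes with at least 0.1 in at least 3 mice, two-sided, with Benjamini-Hochberg adjustment over all of them. Folds of low genes are understated on this scale. With 3 mice against 3, an exact permutation test cannot give a p under 0.1.

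The gene deleted in the model is not reported here. Members and lists were chosen with earlier results of these data known. Values of every mouse were given for members with an adjusted p under 0.1, members with an unadjusted p under 0.05 and no overlap, and the highest member per kb of each role. Symbols were matched to GENCODE on GRCm39 (66 of 69 members), and promoters were taken from RefSeq (GRCm38.p6). The test was tested on simulated data. Settings varied were the scaling, pseudocount, filter, variance model, limma-voom, sex chromosomes, a replicate block and each mouse left out. Figures were made with Python 3.11.15 and matplotlib 3.10.9.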

Additional observations from a re-analysis of the deposited data

How the results depend on the processing

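The log2FC of the members named with the values of every mouse was recomputed under up to 17 alternatives, and no called direction turned. The count of 3 members called at 0.05 was 3 under 9 of 11 settings that kept all mice and 0 without the intensity trend (14 members at an unadjusted p below 0.05 by limma) and 0 with the replicate block (16 members), and it lay between 0 and 3 with 1 mouse left out. Over all genes, 107 calls became 261 with library size alone (83 higher and 178 lower, 31.8% higher beside 77.6% with the deposited scaling), 16 without the trend, 33 with the replicate block, and between 29 (without treated mouse 2) and 216 (without treated mouse 3) with 1 mouse left out. The 2 calls among pathway genes became 0 without the trend, 1 with limma-voom, 0 with the replicate block, and between 0 and 4 with 1 mouse left out. Members wholly lower in treated mice numbered 3, and 1 with a filter at 1 in 3 mice. That filter leaves out *Chst2* and *Chst12*, which reached at most 0.651 and 0.642 in any mouse. For the other changes the cause was not tested.

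The replicate numbers did not pair the mice. Deviations of same-numbered mice correlated across genes at 0.03, -0.13 and -0.12, and not every mouse correlated best with its own number. With n = 3 per group, intervals were wide for many members averaging under 1, and a p that missed the threshold there does not show equal levels.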
